A study of Homo sapiens with 20 samples.

Results

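The vehicle samples were NGP cells, an established human neuroblastoma line, that received only ethanol, the solvent of the drug, and they show what these cells transcribed before any drug acted on them. They were chosen by their treatment label: 10 of the 20 samples in the series carried the ethanol label, and the other 10, treated with a racemic mixture of nutlin-3, were not used here. Each vehicle sample is a biological replicate numbered 3 to 12 in its title, and the time of exposure is not given in the sources used here. All samples are the same line and carry no engineered allele, so the variation described below is that between cultures and libraries. It includes any error in assigning reads to transcripts. Poly(A) RNA was sequenced, and the values are estimated counts and TPM, a transcript level corrected for length and depth, summed here over the transcripts of each gene. The depth was similar between samples, at 14455477 to 19532971 estimated counts per sample.

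Neuroblastoma arises from the sympathetic branch of the neural crest, and its cells keep to varying degrees the programme of a sympathetic neuroblast. That programme is run by a small circle of transcription factors, among them PHOX2A, HAND2, GATA3 and ISL1, which switch on catecholamine synthesis and neurite genes. Cultured lines are sorted into an adrenergic state, which has this circle, and a mesenchymal state, which lacks it and has factors such as PRRX1, FOSL1 and YAP1 instead. MYCN, a MYC family transcription factor on chromosome 2, is the best known oncogene of the disease, and MDM2, on chromosome 12, encodes a ubiquitin ligase that is amplified in some tumours.

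The genes that mark these samples were high in all 10 of them. MYCN (ENSG00000134323, chr2:15940550-15947007 in hg38) had 1620 ± 128 TPM (SD, n = 10). Its lowest value was 1314 TPM in replicate 10, its median 1685 TPM and its highest value 1726 TPM in replicate 3. Replicates 10 and 11, at 1314 and 1491 TPM, were the lowest, and the other 8 lay between 1607 and 1726 TPM. Among 19563 protein-coding genes MYCN ranked 75th by mean TPM and 7th by CPM (counts scaled to a common total, not corrected for length). H19, an imprinted long non-coding RNA (lncRNA) of the fetal growth locus on chromosome 11 (chr11:1995166-2004552), had 2045 ± 84.99 TPM, between 1892 and 2142 TPM. It was the most abundant of the 14876 lncRNA genes by mean TPM. HAND2, a bHLH factor of the sympathetic lineage (chr4:173524969-173530229), had 560 ± 38.9 TPM, between 501 and 609 TPM, and ranked 199th. MDM2 (chr12:68808177-68845544) had 218 ± 66.9 TPM, between 131 TPM in replicate 10 and 309 TPM in replicate 9, and ranked 519th. The relative spread of MDM2 was thus 30.6% of its mean, against 7.89% for MYCN, 6.96% for HAND2 and 4.16% for H19.

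**Figure D1:**
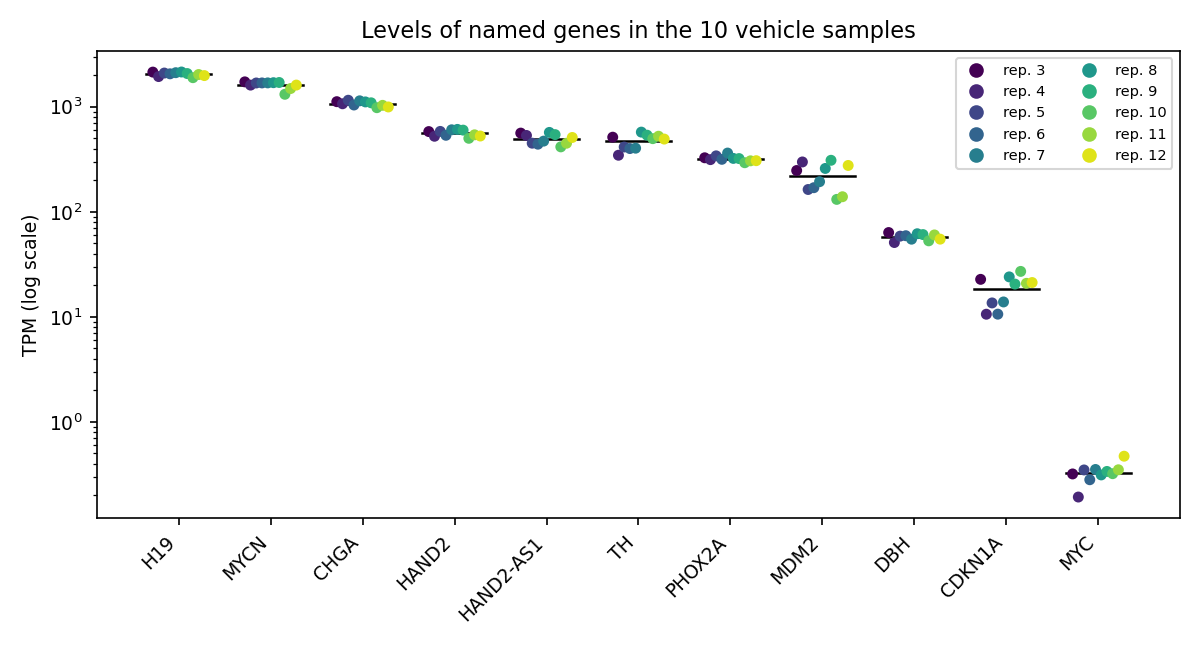
Points are the TPM of 11 named genes (log scale) in each of the 10 vehicle samples, coloured by replicate, and black lines are the means. Most genes form tight clusters, whereas MDM2 spreads from 131 to 309 TPM and CDKN1A from 10.6 to 27.0 TPM, and MYC lies at 0.328 TPM, far below MYCN.

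H19 is also the host transcript of a microRNA, which is cut from a hairpin in its exon, and the mature sequences are shown because they say what the abundant transcript carries besides itself. RefSeq (GRCh38.p14) places them on the minus strand of chromosome 11, the 5p arm at chr11:1996800-1996822 and the 3p arm at chr11:1996768-1996787. Bases 2 to 8, the seed that pairs with targets, are in capitals.
hsa-miR-675-5p: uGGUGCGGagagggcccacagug
hsa-miR-675-3p: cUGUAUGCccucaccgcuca
The hairpin starts at base 1012 of H19-202 in the annotation, and H19-202 held 59.2 ± 4.001% of H19's TPM, at 1211 TPM. The poly(A) library measured the host transcript and not the mature microRNAs, whose level was not measured. H19-202 is listed with 2281 bases in the deposited files and 2309 in the annotation, and for most other H19 transcripts the lengths differ by more, so that their share of the hairpin was not assessed.

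HAND2 was accompanied by HAND2-AS1, a lncRNA on the opposite strand with an annotated start next to it. HAND2-AS1 had 494 ± 55.8 TPM, between 415 and 570 TPM, and ranked 4th among the lncRNA genes. The ratio of HAND2 to HAND2-AS1 was 1.14 ± 0.112 over the 10 samples, between 0.983 and 1.29. A RefSeq start of HAND2-AS1 lies at base 173530458 of chromosome 4 and that of HAND2 at base 173530229. The annotation used for the levels starts the HAND2-AS1 gene at base 173527270, within HAND2. Where transcription started was not measured. The 228 bases between the RefSeq starts, chr4:173530230-173530457 in GRCh38.p14, are shown because those starts point away from each other. They are read on the HAND2 strand, with HAND2 to the right, and capitals mark a CCAAT motif and its reverse complement ATTGG.
HAND2 intergenic: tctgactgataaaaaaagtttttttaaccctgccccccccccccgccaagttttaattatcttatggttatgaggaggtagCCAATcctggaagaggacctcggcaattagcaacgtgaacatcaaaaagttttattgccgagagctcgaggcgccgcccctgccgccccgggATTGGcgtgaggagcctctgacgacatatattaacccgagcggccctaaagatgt
The matches lie 147 and 55 bases before the HAND2 start. CCAAT was searched on both strands, and of 35116 RefSeq promoter windows of 300 bases 34.6% held at least 1 match and 10.8% at least 2. The match is a description of the sequence only. The annotated bodies of HAND2 and HAND2-AS1 overlap, and the sources used here do not state whether strand was used in the quantification, so reads from the overlap may have been split between them. GATA3 and its antisense GATA3-AS1 differed more, at 106 ± 6.70 and 34.9 ± 1.26 TPM, a ratio of 3.04 ± 0.239. MYCN and its antisense MYCNOS, at 100 ± 7.001 TPM, had a ratio of 16.2 ± 1.61. Wherever the members of these pairs overlap, reads may have been split between them in the same way.

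The transcriptome as a whole was broad. At a mean of at least 1 TPM, 11774 of the 19563 protein-coding genes (60.2%) were detected, and 7394 (37.8%) reached 10 TPM, 1176 (6.01%) reached 100 TPM and 118 reached 1000 TPM. Of the lncRNA genes 2638 (17.7%) reached 1 TPM, 384 reached 10 TPM and 40 reached 100 TPM. H19 alone reached 1000 TPM among them. The median level was 3.72 TPM over all protein-coding genes and 0.0948 TPM over all lncRNA genes. No count in any sample was assigned to 2031 protein-coding and 4077 lncRNA genes, which at this depth allows up to 0.0170 CPM over the 10 libraries together (3 counts, counting error only). Protein-coding genes held 74.9 ± 1.83% of the TPM and lncRNA genes 2.88 ± 0.132%, and the share of lncRNA genes lay between 2.66% and 3.05% in the single samples.

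The summit of the abundance list held few kinds of gene. The 7 genes of highest mean TPM were nuclear copies (pseudogenes) of mitochondrial genes, led by MTCO3P12 with 18108 ± 1110 TPM and MTCO2P12 with 12560 ± 802 TPM. No gene of the mitochondrial chromosome itself was matched in the files, so reads of mitochondrial messages that resemble these copies cannot be told apart from reads of the copies. The 391 copies together held 9.004 ± 0.684% of the TPM, with the lowest value, 7.60%, in replicate 10. Below them stood the translation machinery. RPL41, a protein of the large ribosomal subunit, had 6093 ± 598 TPM, RPS24 of the small subunit 5703 ± 570 TPM, and the elongation factor EEF1A1 4872 ± 271 TPM. GAPDH, an enzyme of glycolysis, had 5529 ± 196 TPM and ranked 3rd among protein-coding genes. Of the 20 highest protein-coding genes 13 encode ribosomal proteins, and of the 100 highest 63 do. All 77 cytosolic ribosomal protein genes were above 10 TPM and 72 above 100 TPM, and together they held 16.9 ± 1.49% of the TPM, from 15.4% to 20.1%. Replicates 10, 11 and 12 had the 3 highest shares, at 20.1%, 18.4% and 17.8%, and replicates 10 to 12 also had the 3 lowest shares of the mitochondrial copies.

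Some of the highest genes were of another kind. CCT2, a subunit of the chaperonin that folds actin and tubulin, had 4178 ± 151 TPM and ranked 9th among protein-coding genes, and CDK4, the cyclin D-dependent kinase that drives cells out of G1, had 4027 ± 127 TPM and ranked 10th. By CPM they ranked 2nd and 5th. Beside these, GAPDH and EEF1A1, the 20 highest held PPIA, a prolyl isomerase, at 3998 ± 302 TPM, FTL, the ferritin light chain, at 3697 ± 160 TPM, TUBA1B, an alpha tubulin, at 3367 ± 107 TPM, and 13 ribosomal protein genes. The 10 highest genes of any kind held 8.73 ± 0.410% of the TPM, the 100 highest 31.8 ± 0.942% and the 1000 highest 61.4 ± 1.38%.

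The sympathetic lineage list was complete. All 20 adrenergic transcription factors reached a mean of 1 TPM, in every sample, and 16 reached 10 TPM, against 60.2% and 37.8% of all protein-coding genes. Their median was 71.5 TPM. After HAND2 came GATA2 (322 ± 21.9 TPM), PHOX2A (321 ± 19.5 TPM), HAND1 (186 ± 12.2 TPM) and TWIST1 (173 ± 10.2 TPM). GATA2 and PHOX2A did not differ beyond their spread. ISL1, a LIM homeobox factor, had 154 ± 11.1 TPM, and GATA3, a zinc finger factor, 106 ± 6.70 TPM. The lowest members were SIX3 with 3.25 ± 0.438 TPM and EYA1 with 4.08 ± 0.813 TPM.

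Most mesenchymal factors were under 1 TPM. Of 18 mesenchymal transcription factors 3 reached 1 TPM (7 reached 1 CPM), namely FOSL2 (16.5 ± 2.50 TPM), SNAI2 (5.21 ± 1.02 TPM) and MAFF (4.35 ± 0.658 TPM). PRRX1, a homeobox factor that defines the mesenchymal state, had 0.226 ± 0.125 TPM, FOSL1 0.378 ± 0.146 TPM and YAP1, the effector of Hippo signalling, 0.00356 ± 0.00793 TPM. MEOX1 and MEOX2 had no count in any sample. Of 15 mesenchymal and matrix markers 9 reached 1 TPM, which is 60% and near the 60.2% of all protein-coding genes, and 2 reached 10 TPM: VIM, an intermediate filament protein, with 640 ± 26.9 TPM and SPARC, a matrix protein, with 90.9 ± 4.48 TPM. Fibronectin (FN1) had 8.44 ± 1.47 TPM, CD44 1.08 ± 0.175 TPM and COL1A2 0.0721 ± 0.0982 TPM.

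**Figure D2:**
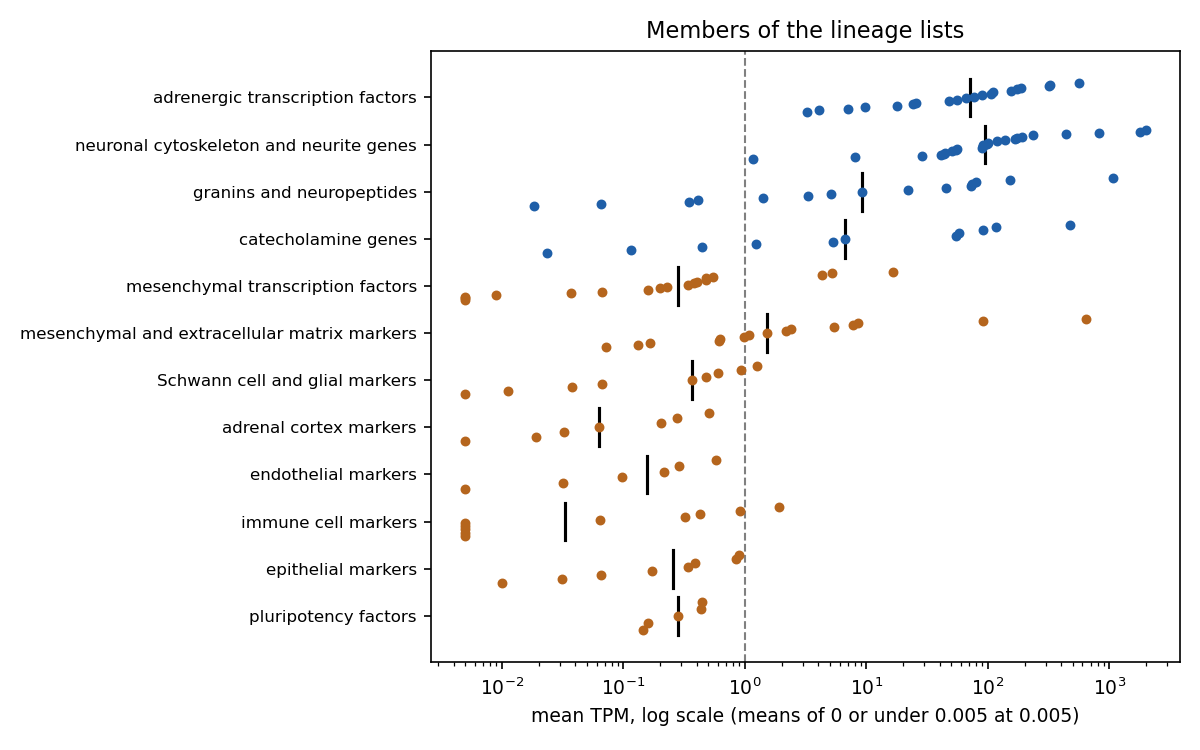
Each point is a member of 1 of 12 gene lists at its mean TPM over the 10 vehicle samples (log scale), black bars are list medians, the dashed line is 1 TPM, blue marks sympathetic and neuronal lists and brown the others. All 20 adrenergic factors and all 24 neuronal genes lie right of the line, and 15 of 18 mesenchymal factors lie left of it.

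Catecholamine synthesis was expressed up to noradrenaline. TH, the rate-limiting enzyme that makes DOPA from tyrosine, had 470 ± 73.9 TPM, between 345 TPM in replicate 4 and 573 TPM in replicate 8. DDC, which makes dopamine from DOPA, had 90.9 ± 9.46 TPM, and DBH, which makes noradrenaline from dopamine, 57.7 ± 4.11 TPM. PNMT, which would make adrenaline, had 0.443 ± 0.309 TPM. The noradrenaline transporter SLC6A2, which carries the tracer MIBG into cells, had 54.3 ± 6.11 TPM. The vesicular transporters were low: SLC18A1 had 1.23 ± 0.307 TPM and SLC18A2 0.0235 ± 0.0744 TPM. MAOA, which breaks catecholamines down, had 6.72 ± 0.871 TPM and its relative MAOB 0.115 ± 0.0648 TPM. GCH1, which makes the cofactor of TH, had 5.29 ± 3.29 TPM.

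Of 15 granins and neuropeptides 11 reached 1 TPM and 7 reached 10 TPM (46.7%, against 37.8% of all protein-coding genes), with a median of 9.26 TPM. CHGA, the main granin of chromaffin and sympathetic cells, had 1072 ± 59.8 TPM, and the granin relatives SCG2, CHGB and SCG3 had 79.0 ± 5.51, 74.6 ± 4.14 and 72.0 ± 4.95 TPM. The order of these 3 is not set beyond their spread. The neuropeptide GAL had 151 ± 7.87 TPM and NPY 9.26 ± 3.94 TPM, whereas VIP and SST stayed under 1 TPM at 0.413 ± 0.167 and 0.344 ± 0.262 TPM. All 24 genes of the neuronal cytoskeleton and neurites reached 1 TPM and 22 reached 10 TPM. STMN1, which destabilizes microtubules, had 1990 ± 115 TPM, UCHL1, a neuronal ubiquitin hydrolase, 1789 ± 59.8 TPM and the neuronal tubulin TUBB3 816 ± 41.4 TPM. The growth cone proteins STMN2 and GAP43 had 192 ± 6.68 and 90.4 ± 6.57 TPM. MAPT, which encodes tau, was the lowest member with 1.17 ± 0.207 TPM.

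Markers of other cell types were near 0. In bulk RNA a few cells of another type and a low level in every cell cannot be told apart. Of 61 such genes in 9 lists 3 reached a mean of 1 TPM: MYH3, a muscle myosin, with 2.06 ± 0.612 TPM, LYZ, lysozyme, with 1.91 ± 0.578 TPM and GFAP, a glial filament, with 1.25 ± 0.284 TPM. The summed level of the 61 genes was 14.02 to 20.5 TPM in the single samples. SOX10, which defines Schwann cell precursors, had 0.0111 ± 0.0352 TPM, the endothelial VWF 0.287 ± 0.185 TPM, the epithelial EPCAM 0.387 ± 0.207 TPM and the leukocyte gene PTPRC 0.0645 ± 0.0705 TPM. CD3E, HLA-DRA, AIF1, ALB, APOA1, TTR, HBB, HBG1 and CYP11B1 had no count in any sample. The labelled identity, neuroblastoma, thus went with the adrenergic factors being present and the markers in these 9 lists being at or near 0. Of the 15 mesenchymal and matrix markers, however, 9 reached 1 TPM. The lists were chosen with earlier results of these data known, so this match is a description only.

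Receptors of the sympathetic lineage were expressed unevenly. RET, the receptor of the GDNF family, had 85.5 ± 14.6 TPM and its co-receptor GFRA2 76.0 ± 5.19 TPM, whereas the co-receptors GFRA1 and GFRA3 had 0.698 ± 0.199 and 0.133 ± 0.0650 TPM. The neurotrophin receptor NTRK2 had 0.206 ± 0.0624 TPM. ALK, a receptor kinase mutated in a subset of neuroblastomas, had 20.7 ± 1.79 TPM.

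Within the MYC network MYCN stood alone. MYC had 0.328 ± 0.0689 TPM and MYCL 1.74 ± 0.370 TPM. MAX, the obligate partner of MYCN, had 46.6 ± 3.91 TPM, so that the ratio of MYCN to MAX was 34.96 ± 3.50, between 26.8 in the lowest sample and 39.4 in the highest. Other members of the network, MLX (62.6 ± 3.26 TPM), MXD3 (43.2 ± 3.98 TPM) and MXI1 (35.2 ± 3.70 TPM), were in the range of MAX. Neighbours of MYCN on chromosome 2 were lower than MYCN: DDX1, an RNA helicase, had 181 ± 7.73 TPM, NBAS 20.9 ± 0.798 TPM and CYRIA, on the other side, 27.7 ± 3.02 TPM.

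In a list of 14 regulators of growth arrest and apoptosis, which lie on several chromosomes, MDM2 was the highest member by mean TPM. It was followed by BAX, a pore-forming apoptosis protein, at 206 ± 18.6 TPM and CDKN2A, whose products inhibit CDK4 and MDM2, at 183 ± 12.3 TPM. MDM2 did not differ from BAX or CDKN2A beyond its spread. MDM4, the partner of MDM2, had 21.7 ± 3.74 TPM. The stress-induced genes CDKN1A and GDF15 had 18.5 ± 5.86 and 0.712 ± 0.554 TPM. The cell cycle list was nearly fully expressed, with 23 of 24 genes (95.8%) at 1 TPM or more, against 60.2% of all protein-coding genes. CCND1 had 544 ± 64.5 TPM and CCND2, another D cyclin, 0.113 ± 0.0736 TPM.

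Genes next to CDK4 and MDM2 were high as well, and this led to a scan of the genome that was added after the values had been seen. Chromosome 12 amplicons that hold CDK4 or MDM2 are known from sarcomas and from some neuroblastomas, and DNA copy number was not measured in these files. The median TPM was taken over every run of 9 adjacent protein-coding genes. Of 19371 such windows 50 had a median of at least 100 TPM, and 34 of these 50 lay on chromosome 12. That chromosome holds 1016 of the 19563 protein-coding genes. Neighbouring windows share most of their genes, so the 34 windows are not separate finds. The median over all windows was 4.45 TPM. The highest window, at 321 TPM, lay within chr12:122172029-123598582, a stretch made of 16 overlapping windows. Of the 30 genes in that stretch 15 had at least 100 TPM, among them CDK2AP1 (2338 ± 267 TPM), ARL6IP4 (1632 ± 58.7 TPM), DIABLO (1157 ± 53.2 TPM), which promotes caspase activation, and KNTC1 (772 ± 77.6 TPM), a kinetochore protein. A stretch around ANAPC5, a subunit of the anaphase-promoting complex with 908 ± 39.3 TPM, lay at chr12:121132819-121832656, and its best window had a median of 225 TPM.

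The stretch around MDM2 spanned chr12:68201349-69699476 with 15 genes, of which 8 had at least 100 TPM. From RAP1B (693 ± 30.2 TPM) and NUP107 (691 ± 42.8 TPM) through MDM2 to CPSF6 (446 ± 88.7 TPM), YEATS4 (383 ± 25.8 TPM) and CCT2, genes of broad use were high. CNOT2, further along, had 727 ± 45.5 TPM. Low genes stood beside them, inside the stretch MDM1 before RAP1B with 5.41 ± 0.852 TPM, and outside it KCNMB4 beyond CNOT2 with 9.10 ± 1.01 TPM. Tissue-restricted genes among the high ones were also low, LYZ with 1.91 TPM and LRRC10, a heart gene, with 0.181 ± 0.0829 TPM. Around CDK4, TSFM (731 ± 22.3 TPM), METTL1 (492 ± 27.0 TPM), CTDSP2 (397 ± 24.8 TPM) and TSPAN31 (335 ± 14.6 TPM) were high, and AGAP2 at the edge had 11.8 ± 1.70 TPM. The annotated gene bodies of CDK4 and TSPAN31 overlap, as do those of MDM2 and CPM.

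**Figure D3:**
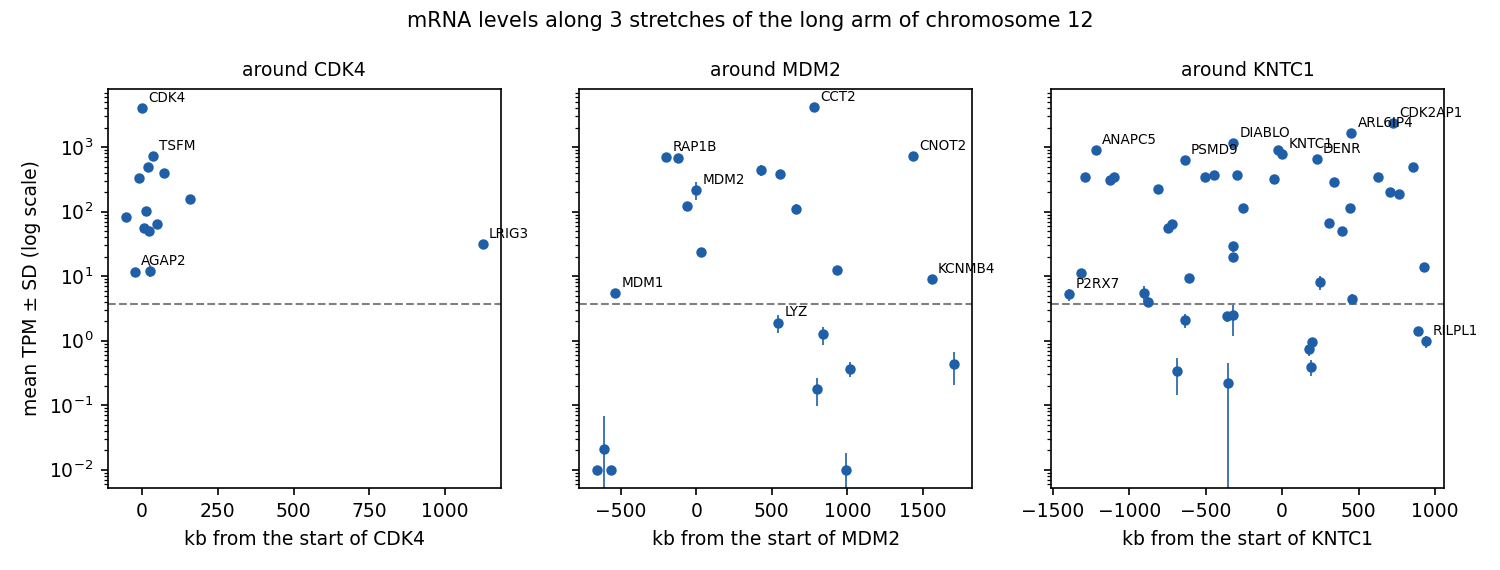
Points are the mean TPM (log scale) of protein-coding genes with SD over the 10 samples, against the distance in kb of each gene's start from that of CDK4, MDM2 or KNTC1 (means under 0.01 TPM drawn at 0.01), and the dashed line is the median of all protein-coding genes, 3.72 TPM. Runs of genes above 100 TPM stand beside genes such as MDM1, LYZ and KCNMB4 at under 10 TPM.

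Together the 4 stretches around CDK4, MDM2, ANAPC5 and KNTC1 held 69 protein-coding genes, 0.353% of all, and 3.44 ± 0.147% of the protein-coding TPM. Of the 69 genes 35 (50.7%) reached 100 TPM, against 6.01% of all protein-coding genes, and since the stretches were chosen for their levels this is a description only. Of the lncRNA genes of at least 50 TPM, 65 in all, 5 lay in these stretches. LINC01089, the second most abundant lncRNA gene, was among them with 902 ± 40.8 TPM, as was GIHCG of the CDK4 stretch with 315 ± 23.0 TPM. The second highest stretch of the scan, with a best median of 262 TPM, held RPS26, RPL41 and MYL6 at chr12:56041351-56229854. The stretch around CDK4 was the lowest of the scan, with a best median of 102 TPM. Stretches on chromosome 17 (189 and 107 TPM), chromosome 1 (135 TPM), chromosome 19 (111 TPM) and at chr12:6852148-6970780 (103 TPM) lay above it.

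Hosts of small nucleolar RNAs were among the other abundant lncRNAs. SNHG29 had 699 ± 65.6 TPM, GAS5 445 ± 40.9 TPM, SNHG5 415 ± 64.5 TPM and DANCR 350 ± 16.5 TPM. The nuclear lncRNAs NEAT1, the scaffold of paraspeckles, and MALAT1 had 74.8 ± 10.2 and 25.9 ± 4.93 TPM. A further 3 lncRNA genes on chromosome 21, ENSG00000280800, ENSG00000280614 and ENSG00000281181, were listed with identical values in every sample, 189 to 1033 TPM, and they count as 1 measurement. SYT9-AS1 had 335 ± 22.2 TPM and LINC00682, on chromosome 4, 162 ± 6.60 TPM.

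A gene's level was often made of several transcripts. Among the 12361 genes of at least 1 TPM with 2 or more transcripts, the highest transcript held at least 50% of the gene's TPM in 6770 genes (54.8%) and at least 80% in 2258 (18.3%). The median share was 53.01%. The same transcript was highest in all 10 samples in 7167 genes (58.0%). Agreement rose with the level: it was 41.4% for protein-coding genes of 1 to 10 TPM, 67.7% for those of 10 to 100 TPM and 82.1% for those above 100 TPM. Transcripts of the protein-coding type held 82.1 ± 0.522% of the TPM of protein-coding genes, retained-intron transcripts 8.60 ± 0.333% and transcripts marked for nonsense-mediated decay 4.24 ± 0.0818%. Types were taken from an annotation later than the authors', in which 84.4% of the matched transcripts, holding 49.5% of the protein-coding TPM, have the length listed in the files.

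Several lineage genes had 1 dominant transcript and others did not. MYCN, HAND1, SOX11, SOX4, NEFH and INA are listed with 1 transcript only. DBH-202 held 95.04 ± 2.29% of DBH, CHGB-201 93.9 ± 0.956% of CHGB and ISL1-201 88.8 ± 2.54% of ISL1. GAL-201 held 99.9 ± 0.0984% of GAL and MAP1B-201 99.8 ± 0.181% of MAP1B. HAND2-201, the coding transcript, held 65.1 ± 1.14% of HAND2, and HAND2-202, of the nonsense-mediated decay type, 29.5 ± 1.25%. TH was divided, with 25.6 ± 0.993% on the coding TH-202, 21.6 ± 0.990% on the retained-intron TH-211 and 19.3 ± 1.45% on the coding TH-206. UCHL1 had a retained-intron transcript, UCHL1-211, as its highest, with 42.8 ± 1.399%, ahead of the coding UCHL1-201 with 23.8 ± 1.84%. Of the 61 lineage, neuronal, MYC and growth arrest genes with several transcripts 51 kept the same highest transcript in all 10 samples. In 39 of the 61 the highest transcript held at least 50% of the TPM. The means of the 61 genes lay on both sides of 100 TPM. Over all protein-coding genes the same 2 shares were 67.7% and 51.5% at 10 to 100 TPM, and 82.1% and 61.9% at 100 TPM or more.

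In 10 of these 61 genes the highest transcript changed between samples. For PHOX2A the coding PHOX2A-201 and PHOX2A-203 had 49.6 ± 4.003% and 49.3 ± 4.20%, which did not differ beyond their spread, and for TWIST1 the coding TWIST1-201 and the decay-marked TWIST1-202 had 49.5 ± 2.96% and 48.6 ± 2.73%. The others were ELAVL2, ELAVL4, MXD3, MXI1, MGA, PPM1D, USP7 and MDM2. Among the 2379 protein-coding genes of at least 50 TPM with several transcripts 289 (12.1%) had a highest transcript that was not of the protein-coding type. The most abundant of them were NPM1, RPL4, RPS28 and RPL37, and RSRC2 and DIABLO of the chromosome 12 stretch were also in the first 10. NPM1-210, a retained-intron transcript, held 44.5 ± 1.59% of the TPM of NPM1, a nucleolar chaperone, but 7.46% of its estimated counts.

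MDM2 showed the largest shifts among the marker genes. It is listed with 33 transcripts, and the highest, MDM2-226, a transcript of 502 bases with no defined coding sequence, held 17.0 ± 10.8% of the gene's TPM. Its level in replicates 3 to 12 was 0.0969, 74.0, 15.2, 44.7, 42.9, 55.9, 86.7, 0.00, 16.7 and 70.3 TPM. It was the highest transcript in 6 samples, and 4 different transcripts were highest across the 10. The coding MDM2-224 was steadier, with 16.7 ± 1.405%. MDM2-226 received few reads, 207 estimated counts on average of the gene's 3758, and its TPM is large because it is short. Counted without length correction, MDM2 spread less, from 178 CPM in replicate 11 to 259 CPM in replicate 4.

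**Figure D4:**
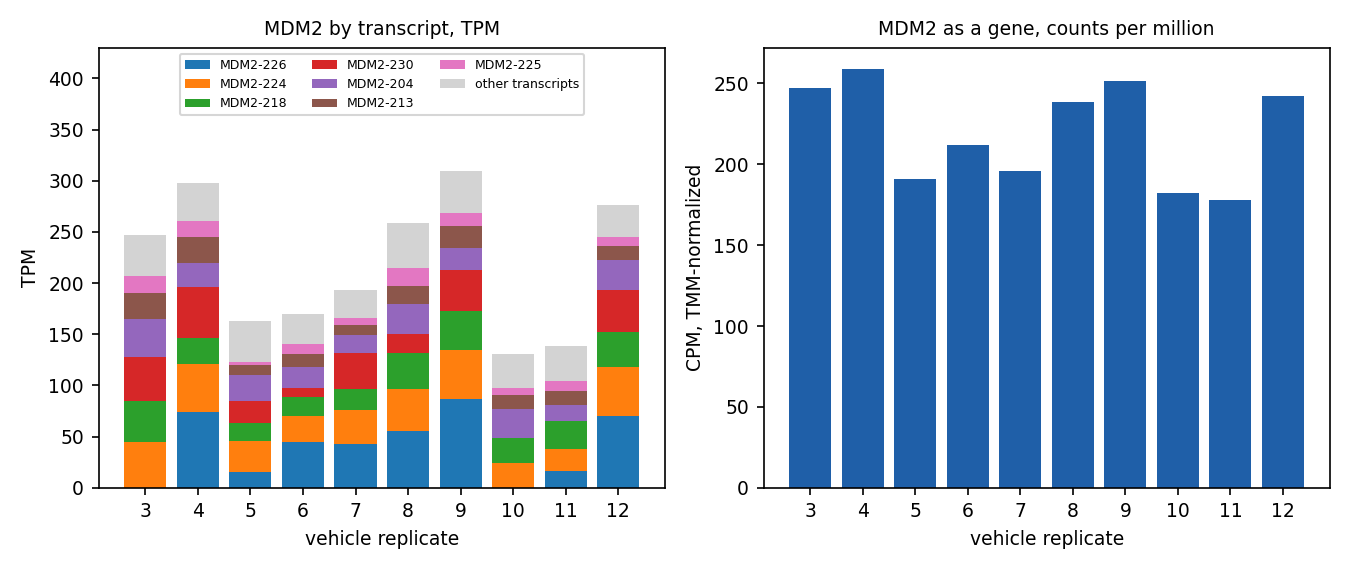
Left, stacked bars give the TPM of the 7 highest MDM2 transcripts and of all others (grey) in each vehicle replicate; right, bars give the normalized CPM of MDM2 as a gene. The total varies from 131 to 309 TPM on the left, mostly with MDM2-226 (blue) and MDM2-230 (red), and from 178 to 259 CPM on the right.

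The replicates were close to each other. The biological coefficient of variation (BCV), the relative spread that remains after counting error, was 0.0877 in common over 14587 genes, with a jackknife standard error of 0.00907. It was 0.0826 over protein-coding genes and 0.118 over lncRNA genes. Since lncRNAs are less abundant, the bins of equal abundance are of use: at 10 to 100 CPM the median BCV was 0.0738 for 7031 protein-coding and 0.0824 for 322 lncRNA genes, and at 1 to 10 CPM 0.119 and 0.127. Over the 9598 genes of at least 10 CPM the median BCV was 0.0720, and 71 of them (0.740%) had a BCV above 0.2. The BCV of a single gene is an estimate drawn toward the trend at its abundance. A low value is thus not a spread measured in that gene alone. The 10 steadiest genes had a BCV of 0.0435 to 0.0450. Among these were TLK2, HSPA12A, PPHLN1, ARIH2, MACO1, PTTG1IP, NCSTN, VAPB and AREL1, and TLK2, a kinase of chromatin assembly, had 68.5 CPM in its lowest and 72.2 CPM in its highest sample. The markers MYCN, HAND2 and H19 had BCVs of 0.0716, 0.0677 and 0.0660, close to that median, and MDM2 had a higher one, 0.119.

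The genes of highest spread were of mixed kinds. RN7SL2, an RNA of the signal recognition particle, had a BCV of 0.597, with 44.6 CPM in replicate 6, 26.9 CPM in replicate 4 and 4.65 to 15.1 CPM in the others. The chromosome 21 lncRNAs, with a BCV of 0.467, were also highest in replicates 6 and 4, at 733 and 441 CPM against 125 to 321 CPM elsewhere. These lncRNAs lie within 20 kb of a ribosomal RNA gene in the annotation. FGF23, a phosphate hormone, had 34.7 CPM in replicate 4 and 26.6 CPM in replicate 7, and 4.22 to 9.74 CPM in the other 8. USP40, a ubiquitin hydrolase, had 2.71 CPM in replicate 10 and 19.8 to 23.0 CPM in the other 9. REXO2, NT5C3A, FBXL15, TENM4, GJC1, BTBD6, SDK1 and the pseudogenes RPL36AP37 and ENSG00000225840 complete the 15 highest. REXO2, an oligonucleotide exonuclease, ranged from 6.82 to 28.8 CPM.

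**Figure D5:**
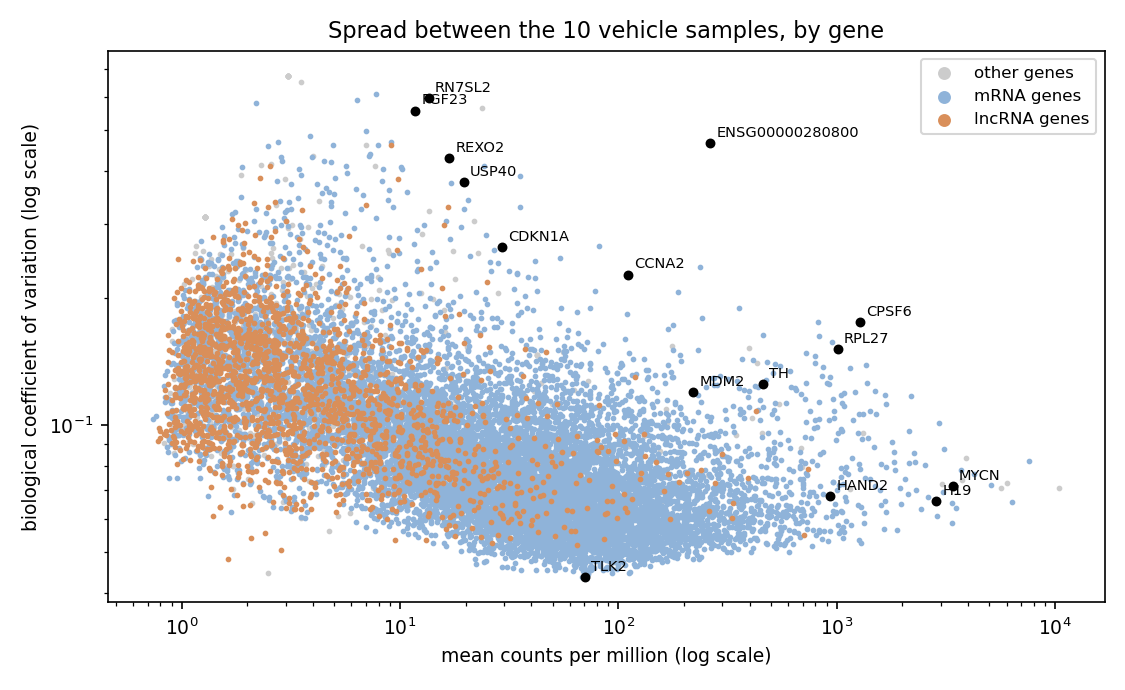
Each point is a gene at its mean CPM and its BCV between the 10 vehicle samples (both log scales), coloured by gene type, with named genes in black. MYCN, H19 and HAND2 lie near 0.07, CDKN1A at 0.264, and RN7SL2, FGF23 and the chromosome 21 lncRNA above 0.4.

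Among the lists the regulators of growth arrest and apoptosis, MDM2 and CDKN1A among them, followed the ribosomal protein and histone genes in spread, with a median BCV of 0.0935 over 11 genes, against 0.0720 over all genes of at least 10 CPM. CDKN1A, which encodes the cell cycle inhibitor p21, had a BCV of 0.264. It had 16.8, 20.5, 18.9 and 20.5 CPM in replicates 4 to 7 and 31.5 to 48.1 CPM in the other 6. TH had the highest spread of the catecholamine list, 0.125, and its values were also lowest in replicates 4 to 7, at 327 to 422 CPM against 462 to 535 CPM elsewhere. RET had 280 to 303 CPM in replicates 4 to 7 and 354 to 412 CPM in the other samples. The share of all genes that separate the same replicates is not given here. The order is therefore not shown to be particular to CDKN1A, TH or RET. CCNA2, a cyclin of S phase, had a BCV of 0.227 and another order, with 155 CPM in replicate 4 and 58.4 CPM in replicate 12. Ribosomal protein genes had a median BCV of 0.111.

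A principal component analysis was made over 14449 genes. The first component held 25.3% of the variance and ran from replicate 4 (-19.0) to replicates 11 (17.1) and 10 (21.4), the samples with the 2 highest shares of ribosomal protein TPM. Replicate 12, with the next highest share, lay at -5.36, and replicates 4 to 7 were spread from -19.0 to 7.81. The second held 14.7%, with replicates 4 to 7 between -14.1 and -6.07 and the other 6 between 4.79 and 9.33. The labels give no batch, date or plate for these samples, so whether this order followed culture or library handling was not tested. These replicate numbers were seen to differ in the data and are not groups of the study, and no test was made between them.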

How the data were processed

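Poly(A) RNA of 10 vehicle-treated NGP cultures was analysed. Per the submitters' processing notes, the authors quantified the reads with kallisto 0.42.4 against hg38 transcripts and deposited estimated counts and TPM per transcript and sample. The deposited TPM are scaled to the same total over all transcripts, so a few abundant short RNAs lower the values of all other genes. Here both were summed per gene after unversioned transcript identifiers were matched to GENCODE 44 (Ensembl 110). Of 198968 transcripts 191106 (96.0%) matched 57536 genes. The 7862 unmatched transcripts were left out, and TPM were not rescaled. CPM used for ranks and thresholds are estimated counts scaled by the library total, and those printed beside a BCV are scaled by TMM-normalized totals of the matched genes.

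Total estimated counts were 14455477 to 19532971 per sample, and counting intervals and floors cover counting error only. Levels are means ± SD over the 10 samples, and no test was made, since all samples are of 1 condition. The study's methods describe the replicates as biological replicates of 1 cell line, so the spread is that between cultures and their libraries. It also holds any error in assigning reads to transcripts and genes, which was not separated from it. The BCV was estimated with edgeR 4.0.16 (R 4.3.3) on rounded counts, with TMM normalization, filterByExpr and an intercept only. Its script was tested on counts simulated per gene. Those counts held no error of read assignment, so the test does not cover such error. Principal components used genes of at least 1 CPM, on log2 CPM with a prior count of 2. Named were the marker genes, the 20 highest genes and 10 highest lncRNAs, leading and defining members of each list, and the 15 highest and 10 lowest genes by BCV among those of at least 10 CPM. Genes of the chromosome 12 stretches were named after their values were seen. The members and the lists were chosen with earlier results of these data known. Alternatives were other thresholds, CPM in place of TPM, rescaled TPM, DESeq2 1.42.0 size factors, other transcript sets and leaving out each replicate. The nutlin-treated samples were not used, and results for a few listed genes are not reported here.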

Additional observations from a re-analysis of the deposited data

Results flagged for a closer look

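In each series of 10 values the gap between the most extreme sample and its neighbour was set against the whole range (Dixon's ratio). Of 192 series examined 11 passed, or 9 with the 3 identical lncRNA series counted once. Chance alone passes about 1 in 20, so the number that passed was not shown to exceed chance. USP40, the pseudogene ENSG00000225840 and the 3 identical lncRNA genes were named for a BCV among the highest in these same samples. The chance rate does not apply to series chosen in that way. Replicate 10 was the highest sample for the ribosomal protein gene RPS24 (7016 TPM against 5251 to 6155 TPM), for NACA, a chaperone of new proteins (1890 against 1545 to 1729 TPM), and for TSFM, a mitochondrial elongation factor (785 against 705 to 745 TPM). The same replicate was the lowest for USP40, with 2.71 CPM against 19.8 to 23.0 CPM. Replicate 4 was the lowest for PCSK1N, an inhibitor of a prohormone convertase (27.8 against 41.7 to 53.7 TPM), and replicate 11 for MLX (54.5 against 60.3 to 65.8 TPM).

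Replicate 6 was the highest for ENSG00000280800, ENSG00000280614 and ENSG00000281181, the lncRNA genes of identical values, with 733 CPM against 125 to 441 CPM, and for the pseudogene ENSG00000225840 with 527 against 89.1 to 304 CPM. It also had the highest share of TPM on unmatched transcripts, 11.8% against 8.16% to 10.05%. The unmatched transcripts, which no other result uses, held 9.28% of the TPM on average.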

How the results depend on the processing

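The cause of the changes given here was not tested. Of the values recomputed under the alternatives listed at the outset 119 stayed within the spread or within 1.5 times a count and 21 moved. Many of the 119 came from leaving out 1 of the 10 replicates. Such values could hardly move beyond these limits, and all of them stayed, so the 119 say little about robustness. Of the values under alternatives chosen after seeing the data 24 stayed and 8 moved. Requiring 1 TPM in every sample left 1690 lncRNA genes. By estimated counts the lncRNA share was 2.40%, the share of the 10 highest genes 5.47%, that of the 100 highest 19.8%, and 73.3% of genes had a dominant transcript. With TPM rescaled over matched nuclear genes the 3 shares were 3.17%, 9.62% and 35.1%, and 5 markers of other cell types reached the threshold. Without transcripts under 200 bases the shares were 3.23%, 9.67% and 35.5%, and without the nuclear copies of mitochondrial genes the 10 and 100 highest held 6.14% and 30.4%. At 1 CPM, 7 mesenchymal factors and 5 markers of other cell types were counted. Dominant transcripts made up 53.1% among genes of at least 10 TPM, 74.8% over protein-coding transcripts only and 18.3% at 80% of the TPM. The BCV of lncRNAs alone was 0.118. The BCV was 0.0806 to 0.0903 when each replicate was left out in turn, lowest without replicate 10. By CPM, HAND2 ranked 109th and CHGA 42nd. Windows of 5 genes gave 149 with a median of at least 100 TPM, 55 on chromosome 12, and windows of 15 genes gave 27. No paired analysis was possible because only 1 condition was described and no test was made.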

Other observations

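Antigen presentation and interferon genes were unevenly expressed. B2M, the invariant chain of class I molecules, had 326 ± 30.7 TPM, whereas HLA-B and HLA-C had 0.831 ± 0.282 and 0.360 ± 0.220 TPM. HLA genes are polymorphic and similar in sequence, so their assignment is uncertain. Of 16 interferon genes 8 (50%) reached 1 TPM, not far from the 60.2% of all protein-coding genes. ISG15, a ubiquitin-like protein, had 0.0368 ± 0.0781 TPM.

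Of the imprinted genes GNAS, a G protein subunit, had 1578 ± 70.1 TPM, MEG3 174 ± 16.0 TPM and IGF2, the growth factor next to H19, 92.3 ± 10.3 TPM. PLAGL1 had no count in any sample. The RNA-binding oncofetal proteins LIN28B, IGF2BP1 and IGF2BP3 had 33.9 ± 5.97, 37.1 ± 3.19 and 50.5 ± 4.15 TPM, while their relatives LIN28A and IGF2BP2 had 0.158 ± 0.0523 and 0.124 ± 0.107 TPM. Of 39 HOX genes 10 (25.6%) reached 1 TPM, against 60.2% of all protein-coding genes. All 15 genes of cholesterol synthesis did, led by FDPS with 357 ± 10.1 TPM. Of the hypoxia genes 11 of 13 (84.6%) reached 1 TPM, and CA9, a carbonic anhydrase, had 0.0119 ± 0.0377 TPM.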
